A study of Mus musculus with 38 samples.

Results

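Pou5f1, Sox2, Sall4, Utf1 and Lin28a are core genes of pluripotency, and 5 histone marks were read at each of them in mouse embryonic stem cells (mESCs) with IκBα (IκBα-WT) and without it (IκBα-KO). The 5 genes were taken by name from the 21938 protein-coding genes of GENCODE vM21 on GRCm38. Each was read over its gene body and 20 kb on either side, and Sox2 over 130 kb downstream as well, to take in the Sox2 control region. In IκBα-KO mESCs more sequence near the 5′ end lay under H3K4me3 calls at 4 of the 5 genes, where 22.9% of all genes differed this way. That window, 5 kb on either side, was chosen after the calls were seen, and 1 of the 4 is Sall4, whose input was higher in the KO. In the promoters and distal sequences set by the rule, groups did not overlap in 20.0% of the comparisons over 5 marks, against 21.0% for all genes. In height, 2 of 16 tested H3K4me3 regions passed (12.5%, against 18.1% of all regions), higher at the Utf1 promoter and lower at the Lin28a promoter. The Lin28a groups overlapped. H3K27ac was higher over the Pou5f1 domain relative to the bulk of all regions. In the Pou5f1 promoter window it did not pass the threshold, but reads were shared out by length there. The level of the promoter apart from its domain was therefore not measured. H3K27ac and H3K4me1 at Sall4 were higher together with the input reads of its chromosome segment.

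All samples were ES-E14TG2a mESCs grown in serum with leukemia inhibitory factor (LIF) and collected at 0 h. In the IκBα-KO cells Nfkbia, which encodes IκBα, had been knocked out by CRISPR-Cas9 with 2 guide RNAs against exon 1, and each genotype had 3 clones. H3K4me3, H3K27ac, H3K4me1, H3K27me3 and H3K9me3 were each measured in 3 IκBα-WT and 3 IκBα-KO libraries, which made 30 ChIP libraries, and the remaining 8 of the 38 samples were inputs. A pair of inputs, 1 per genotype, served for both H3K27ac and H3K4me1, and each of the other marks had its own pair. All 3 libraries of a genotype and mark were therefore compared with the same input, and an error of that input at a locus and a difference between the genotypes cannot be told apart. The labels give H3K27ac and H3K4me1 the same antibody catalogue number whereas the study's methods give H3K27ac another, and which was used for H3K27ac was not tested. Whole populations were profiled, so fewer cells with a mark and less of the mark per cell cannot be told apart.

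The H3K4me3 lists held 23059, 21836 and 23638 calls in the WT and 23736, 26377 and 26806 calls in the KO libraries. Every KO list was therefore longer than every WT list. In total covered length KO replicate 1 lay within the WT group, and KO replicates 2 and 3 lay above it. The H3K4me3 lists held no reads, so their depth is unknown here. What part the longer KO lists had in the H3K4me3 lengths at the 5 genes was not tested. The shares of all genes given with those lengths come from the same lists. ChIP reads in calls ranged from 22943091 to 28339766 per library for H3K27ac, 34736939 to 35951506 for H3K4me1, 8910890 to 10938375 for H3K27me3 and 8548342 to 12105343 for H3K9me3. At Nfkbia itself the highest H3K4me3 fold enrichment over input was 13.1, 10.3 and 13.8 in the WT and 3.70, 5.21 and 5.02 in the KO libraries. The groups did not overlap, although a histone mark does not read the edit in exon 1. Of the other 4 embryonic stem cell markers examined, Nanog and Zfp42 carried H3K4me3 and H3K27ac and no H3K27me3 in all 6 libraries, like Pou5f1 and Sox2. Dppa5a had H3K27ac in all 6, H3K4me3 in 1 WT and 3 KO libraries and no H3K27me3. Esrrb had no H3K4me3 call near its annotated 5′ end and had H3K27me3 in all 6. H3K27me3 was called in all 6 libraries at 5 of 5 primitive endoderm, 3 of 3 primed epiblast, 3 of 3 neural, 3 of 4 fibroblast and 2 of 4 trophoblast markers. H3K4me3 was called in all 6 at 4, 2, 3, 2 and 1 of these markers in the same order, and H3K27ac at 3, 1, 3, 1 and 1.

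Oct4, the product of Pou5f1, and Sox2 are transcription factors that bind DNA side by side and keep embryonic stem cells pluripotent, and both act on enhancers of their own genes and of many other genes active in these cells. Sall4 is a zinc finger transcription factor that works with Oct4. Utf1 is a chromatin-associated protein of undifferentiated cells and a target of Oct4 and Sox2, and Lin28a is an RNA-binding protein that blocks the maturation of let-7 microRNAs. H3K4me3 marks active promoters, H3K27ac active promoters and enhancers, and H3K4me1 enhancers and the flanks of promoters. H3K27me3 is laid down by Polycomb at silent developmental genes and H3K9me3 marks heterochromatin.

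Oct4 and Sox2 bind together at composite elements, and elements of this kind have been described in enhancers of Pou5f1, Sox2 and Utf1. The Sox half-site CNTTGT followed by 1 base of any kind and the Oct half-site ATGC was searched on both strands of each window. It was found within 5 kb of the 5′ end at Pou5f1, Sox2 and Utf1 (3 of 5 genes), and in windows of the same length at 5.83% of the 21938 protein-coding genes. The 3 within 5 kb and the nearer Lin28a match are shown because the marks can be read over them, in lower case with the match in capitals and 5′ to 3′ on the strand of the match. Lin28a had matches only at −12904 and −15069 bp, and Sall4 had none.
Pou5f1, chr17:35504018-35504098, minus strand: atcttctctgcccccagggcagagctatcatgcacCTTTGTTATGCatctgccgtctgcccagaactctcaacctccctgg
Sox2, chr3:34654014-34654094, plus strand: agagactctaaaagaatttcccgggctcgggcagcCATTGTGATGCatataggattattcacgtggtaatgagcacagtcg
Utf1, chr7:139945650-139945730, minus strand: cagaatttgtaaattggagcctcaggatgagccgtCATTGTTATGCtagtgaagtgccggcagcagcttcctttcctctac
Lin28a, chr4:134031700-134031780, plus strand: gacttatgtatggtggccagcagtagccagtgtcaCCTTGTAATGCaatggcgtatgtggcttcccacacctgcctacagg

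The Pou5f1 match, −1965 bp from the 5′ end, lay under H3K27ac and H3K4me1 calls in all 6 libraries and under no H3K4me3 call. The Sox2 match, at 3644 bp and past the end of the gene, lay under H3K27ac in all 6 libraries and under H3K4me1 or H3K4me3 in 0 of 6. The Utf1 match, at 1896 bp and also past the end of the gene, lay under H3K4me3 and H3K27ac in all 6 libraries and under H3K4me1 in 3 WT and 2 KO libraries. The Lin28a match at −12904 bp lay under an H3K9me3 call in 1 WT and 0 KO libraries and under no other mark. The one at −15069 bp, which is not printed, lay under H3K27me3 in 3 WT and 3 KO libraries and under H3K27ac in 1 KO library. The octamer ATGCAAAT, a site for Oct4 alone which does not lie within the composite letters, was found within 5 kb of the 5′ end of 3 of the 5 genes and of 42.8% of all protein-coding genes.

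The sequence before the start site is shown for the genes whose H3K4me3 differed most in height in these libraries, with the GC box GGGCGG or its complement in capitals. It is RefSeq sequence of GRCm38.p6, ended 1 base before the GENCODE 5′ end.
Pou5f1, chr17:35505782-35506017, plus strand: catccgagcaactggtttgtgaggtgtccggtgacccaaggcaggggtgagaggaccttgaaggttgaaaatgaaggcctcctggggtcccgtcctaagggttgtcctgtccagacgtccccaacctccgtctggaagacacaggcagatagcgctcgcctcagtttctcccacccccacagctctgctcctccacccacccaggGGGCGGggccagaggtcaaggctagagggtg
Utf1, chr7:139943606-139943788, plus strand: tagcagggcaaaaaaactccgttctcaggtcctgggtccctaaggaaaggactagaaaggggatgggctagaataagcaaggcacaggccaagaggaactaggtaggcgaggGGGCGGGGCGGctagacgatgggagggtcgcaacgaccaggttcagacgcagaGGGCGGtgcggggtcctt
Lin28a, chr4:134018842-134019066, minus strand: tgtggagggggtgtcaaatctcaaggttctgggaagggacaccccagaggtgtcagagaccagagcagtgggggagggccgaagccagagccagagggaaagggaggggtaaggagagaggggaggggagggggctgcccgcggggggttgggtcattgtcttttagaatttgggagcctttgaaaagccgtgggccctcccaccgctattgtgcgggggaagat

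In the 250 bases before the RefSeq start, Pou5f1 had 8 CpG dinucleotides, Utf1 14 and Lin28a 7, against a median of 6 over 32851 promoters. The GC box was found in these 250 bases at Pou5f1, Utf1 and Sox2 and not at Lin28a, and at 32.7% of the promoters. Sox2 had 27 CpG dinucleotides, more than 91.4% of the promoters. Sall4 was not matched to a RefSeq promoter.

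H3K4me3 calls at the 5 genes lay mostly downstream of the 5′ end and were wide. The widest call within 5 kb was 2862 ± 153 bp (SD, n = 3) at Pou5f1, 3105 ± 976 bp at Sox2, 3337 ± 680 bp at Sall4 and 3090 ± 335 bp at Utf1 in the WT, against a median of 1057 bp over 12451 genes. These widths were above those of 99.1% to 99.8% of the genes. Lin28a had a narrower call of 1827 ± 54.4 bp, above 90.5% of the genes. In height the order was another: in the WT the highest fold enrichment at Lin28a, 18.6 ± 3.09, was above that of 97.4% of 12891 genes, whereas those of Pou5f1, Sall4, Utf1 and Sox2 were above 54.4% to 69.3%.

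**Figure D1:**
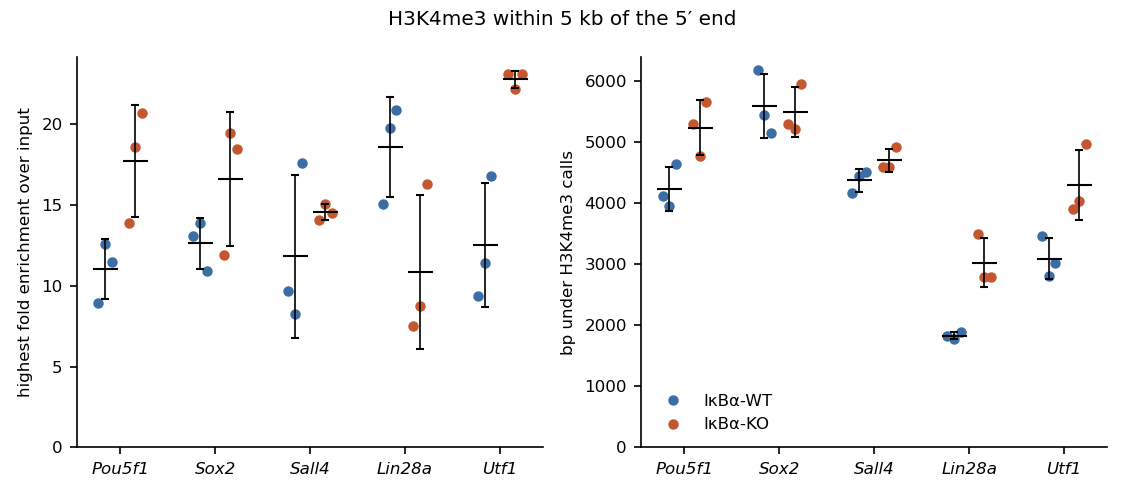
H3K4me3 within 5 kb of the 5′ end of the 5 genes, with 1 point per library, blue for IκBα-WT and orange for IκBα-KO, and the mean with its SD (n = 3) in black. Left, the highest fold enrichment over input. Right, the bp under calls. The KO points lie above the WT points for fold enrichment at Pou5f1 and Utf1 and for bp at Pou5f1, Sall4, Lin28a and Utf1.

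The height of H3K4me3 was compared between the genotypes with limma on the log2 of the highest fold enrichment in each merged region called in all 6 libraries. Of 14907 regions, 18.1% passed an adjusted p of 0.05, and of the 16 tested regions in the windows of the 5 genes 2 passed (12.5%), the Utf1 promoter, which was higher, and the Lin28a promoter, which was lower. At Utf1 the fold enrichment was 9.40, 11.4 and 16.8 in the WT and 23.1, 22.2 and 23.1 in the KO libraries. The groups did not overlap, and of the 5 genes Pou5f1 and Utf1 were higher in this way, as were 21.0% of all genes. The difference was 0.83 ± 0.20 on the log2 scale (SE; limma, Benjamini-Hochberg adjusted p = 0.0125). Without WT replicate 1, the lowest library, it was 0.65 (limma, adjusted p = 0.0550), and over all alternatives the limma adjusted p ranged from 0.00809 to 0.0550. Against the other genes, Utf1 moved from above 68.4% in the WT to above 99.6% in the KO. The smaller regions downstream of Utf1, from 5832 to 7258 bp and from 7367 to 7883 bp, were also higher in every KO than in every WT library, each with a log2 fold change of 0.45 (limma, adjusted p = 0.0978 and 0.106), which did not pass the test.

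At the Lin28a promoter the fold enrichment was 15.1, 19.8 and 20.9 in the WT and 7.53, 8.76 and 16.3 in the KO libraries. KO replicate 3 lay within the WT group, so the groups overlapped. H3K4me3 fell by 0.92 ± 0.25 on the log2 scale (SE; limma, adjusted p = 0.0196). It ranged from −0.90 to −0.74 without WT replicate 2, WT replicate 3, KO replicate 1 or KO replicate 2, and in each of these the limma adjusted p was between 0.0573 and 0.0908. Over all alternatives the limma adjusted p ranged from 0.00713 to 0.0908. The sequence covered at Lin28a moved the other way. H3K4me3 calls within 5 kb covered 1819, 1777 and 1885 bp in the WT and 3491, 2785 and 2793 bp in the KO libraries, without overlap of the groups, and the additional sequence included a region in an intron, from 2344 to 3410 bp, called in 3 KO and 0 WT libraries.

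The Pou5f1 promoter had a fold enrichment of 8.97, 12.6 and 11.5 in the WT and 13.9, 18.6 and 20.7 in the KO libraries. All KO libraries were above all WT libraries. The log2 fold change of 0.60 ± 0.21 (SE) did not pass the test (limma, adjusted p = 0.0570). It passed under 5 alternatives, among them the length-weighted fold enrichment (0.66, limma adjusted p = 0.0377) and no centring of the libraries (0.68, limma adjusted p = 0.0429), and the limma adjusted p ranged from 0.0377 to 0.184 over all of them. The widest call at Pou5f1 measured 2741, 2810 and 3034 bp in the WT and 3243, 3215 and 4432 bp in the KO libraries, and its distal edge moved from between 2373 and 2386 bp to between 2436 and 3463 bp.

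At Sox2 the fold enrichment was 13.1, 13.9 and 10.9 in the WT and 11.9, 19.5 and 18.5 in the KO libraries. At Sall4 it was 9.66, 8.24 and 17.6 in the WT and 14.1, 15.1 and 14.5 in the KO libraries. In both genes the groups overlapped. Each had a log2 fold change of 0.30 ± 0.22 (SE) (limma, adjusted p = 0.362 and 0.355). A smaller Sox2 region from −2359 to −639 bp was lower in every KO library, with 7.71, 7.73 and 10.7 in the WT and 7.16, 6.53 and 6.63 in the KO libraries, and did not pass the test (log2 fold change −0.42 ± 0.19 (SE); limma, adjusted p = 0.123).

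H3K4me3 calls within 5 kb of the 5′ end covered more sequence in every KO than in every WT library at Pou5f1, Sall4, Lin28a and Utf1, that is 4 of 5 genes, where 22.9% of all genes with calls were higher and 7.40% lower without overlap. The calls had been seen to lie downstream when this window was chosen. The covered length at Pou5f1 was 4119, 3943 and 4630 bp in the WT and 5295, 4760 and 5645 bp in the KO libraries. At Utf1 it was 3455, 2797 and 3018 bp against 3902, 4031 and 4958 bp. Sall4 differed least, with 4155, 4444 and 4512 bp against 4593, 4586 and 4913 bp. At Sox2, which had the most covered sequence of the 5 genes, the groups overlapped, with 6167, 5442 and 5138 bp in the WT libraries against 5298, 5212 and 5953 bp in the KO. The exact permutation test cannot go below 0.1 with 3 against 3 libraries, so no p is given for these lengths.

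The widest call was wider in every KO library at Pou5f1, Utf1 and Sall4, 3 of 5 genes, where 19.9% of all genes were wider without overlap. At Utf1 it measured 3455, 2797 and 3018 bp in the WT and 3471, 3572 and 3556 bp in the KO libraries, so the groups were 16 bp apart at their nearest. At Sall4 it measured 3511, 3913 and 2587 bp in the WT libraries against 4025, 4554 and 5014 bp in the KO. The Sox2 call was split in KO replicate 1, where the widest piece measured 1507 bp, and its groups overlapped.

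**Figure D2:**
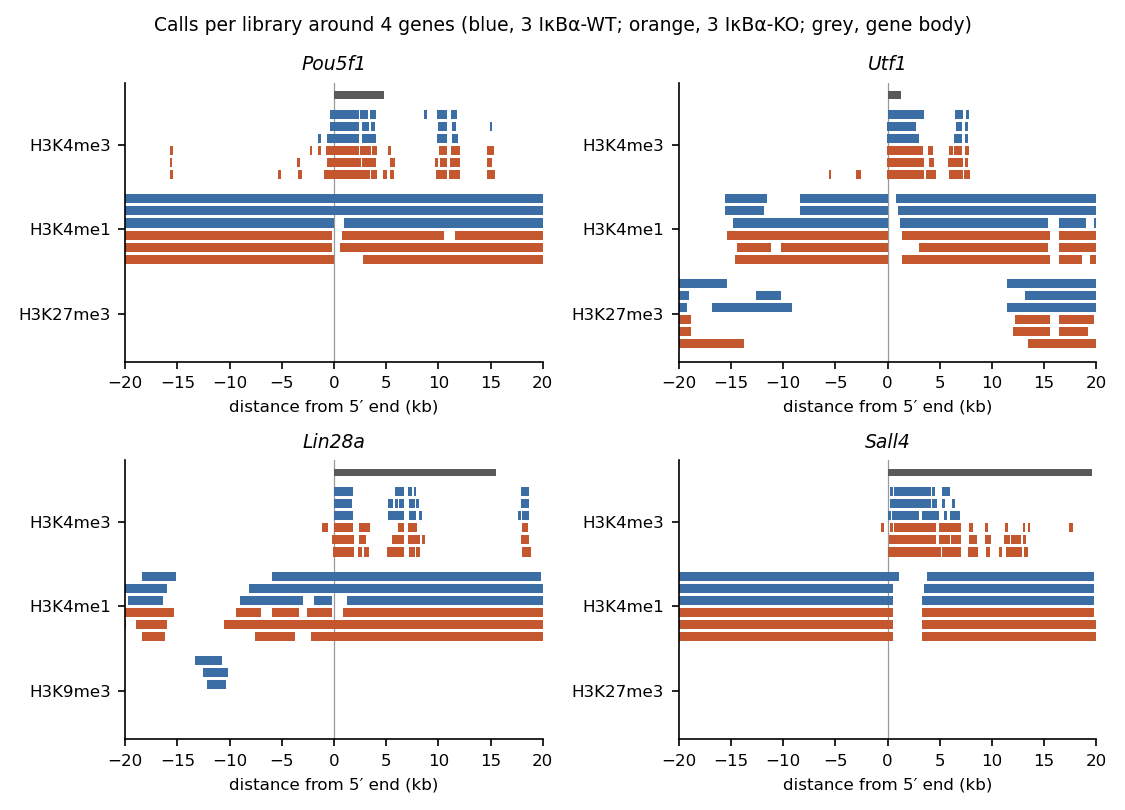
Calls of each library within 20 kb of the 5′ end of Pou5f1, Utf1, Lin28a and Sall4, as bars along the distance from the 5′ end in kb with the gene to the right, 3 IκBα-WT libraries in blue above 3 IκBα-KO libraries in orange, and the gene body in grey. H3K4me3 calls between 5 and 20 kb inside Sall4 are more numerous in the KO, the Pou5f1 map has no H3K27me3, and the H3K9me3 calls upstream of Lin28a are in the 3 WT libraries.

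The windows of the 5 genes held 53 merged H3K4me3 regions, of which 9 were called in 3 KO and 0 WT libraries and 0 in 3 WT and 0 KO libraries. Over the genome these were 3.12% and 0.743% of 31237 regions. The 9 regions were distributed over all 5 genes. Sall4 had 4 of them inside its gene body, between 7670 and 13685 bp from the 5′ end, 2 over an exon and 2 in an intron. Pou5f1 had 2, outside its gene body, from −15751 to −15429 bp and from 5211 to 5845 bp. Utf1 had 1 from 3732 to 4655 bp, Lin28a the intronic one, and Sox2 1 in its control region. Without Sall4, 5 of 43 regions remained. For Sall4 the input reads of the other marks, given with H3K27ac, were higher in the KO, and the H3K4me3 lists hold no input reads, so the part of the input in its 4 regions was not tested.

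The Sox2 control region, the cluster of enhancers far downstream of Sox2 that drives the gene in embryonic stem cells, was taken as chr3:34750405-34765405. H3K4me3 calls covered 0, 240 and 0 bp of it in the WT libraries, against 834, 882 and 1055 bp in the KO. The groups did not overlap. A share for stretches of this length was not counted, and in the distal sequence 22.8% of all genes were higher without overlap. The region from 113888 to 114596 bp was called in all 3 KO libraries and in 0 WT libraries. The one from 106831 to 107429 bp was called in 1 WT and 2 KO libraries. Those from 114751 to 115193 bp and from 109441 to 109665 bp were called in 0 WT libraries and in 2 and 1 KO libraries. The highest fold enrichment of the calls there was low, 4.17 in the 1 WT library and 5.11, 5.51 and 5.31 in the KO libraries. H3K27ac and H3K4me1 covered the whole control region in all 6 libraries, and H3K27me3 and H3K9me3 were called there in none.

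**Figure D3:**
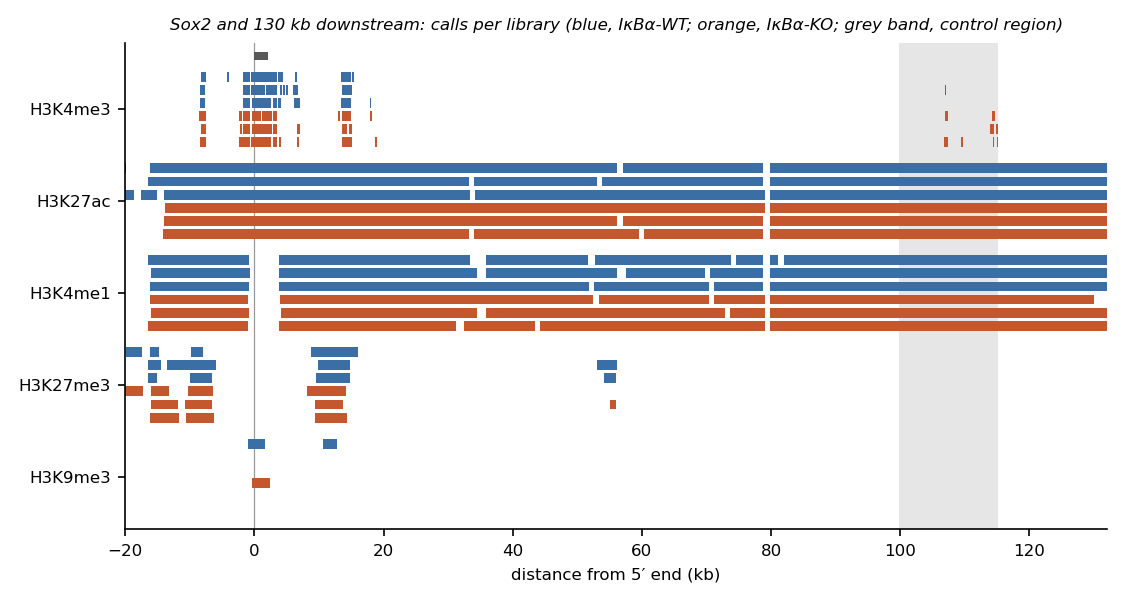
Calls of each library from 20 kb before Sox2 to the end of its window for the 5 marks, against the distance from the 5′ end in kb, with IκBα-WT in blue, IκBα-KO in orange, the gene body in dark grey and the control region as a grey band. H3K4me1 calls leave a gap over Sox2 that H3K27ac covers, and H3K4me3 calls in the band are mostly in the KO.

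H3K27ac formed domains far longer than the genes. ChIP reads per merged region were compared with edgeR's quasi-likelihood test, with trimmed mean of M-values (TMM) factors and the covered length of each library as an offset, and levels are given as ChIP reads per covered kb scaled to equal TMM library sizes. Of 24039 regions 13.2% passed, and of the 8 tested in the windows 2 passed (25.0%), both higher in the KO, at Pou5f1 and Sall4, where 8.75% of all regions were called higher. Without Sall4 1 of 7 passed (14.3%). The reads behind a tested region ranged from 95 to 33664 per library. A share for regions as long or as deep as the called ones was not counted. Without TMM factors the median log2 fold change of all regions moved to −0.20 and the share of higher calls among all called regions from 66.5% to 4.6%, so H3K27ac changes are given relative to the bulk of the regions.

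The Pou5f1 domain ran from −22817 to 55582 bp (chr17:35483201-35561600) and held the neighbours Tcf19, Cchcr1 and Psors1c2. Its level was 117, 124 and 125 reads per covered kb in the WT and 140, 135 and 135 in the KO libraries. All KO libraries were above all WT libraries. The log2 fold change was 0.17 ± 0.03 (SE; edgeR, Benjamini-Hochberg adjusted p = 0.00139), and −0.03 without TMM factors, where the median of all regions was −0.20. With the input reads as the offset in place of the covered length (the input offset), it was 0.19 (edgeR, adjusted p = 3.88e-04). When reads were shared out by length to the promoter window alone, the level was 132, 138 and 159 against 151, 135 and 150, the groups overlapped, and the fold change was 0.02 (edgeR, adjusted p = 0.930, with a range of 5.40e-07 to 0.930 over all edgeR and DESeq2 alternatives). Shared out in this way, a window takes the density of the call that spans it. The level of the promoter apart from its domain was not measured.

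Sall4 lay in a domain of 317800 bp, from −273657 to 44142 bp. Its level was 78.6, 80.2 and 79.7 reads per covered kb in the WT and 104, 107 and 108 in the KO libraries, a log2 fold change of 0.42 ± 0.02 (SE; edgeR, adjusted p = 4.81e-08). The groups were far apart. The input reads were too, with 33.8, 33.6 and 33.1 per covered kb within 5 kb of the 5′ end in the WT calls and 48.4, 45.0 and 43.3 in the KO calls. In the 1 Mb window around Sall4 the log2 ratio of KO to WT input reads was 0.49, 0.52, 0.49 and 0.46 in the H3K27ac, H3K4me1, H3K27me3 and H3K9me3 lists, where the SD over all windows was 0.13 to 0.16. The windows of the other 4 genes had ratios of −0.04 to 0.13. With the input as an offset the H3K27ac fold change at Sall4 turned to −0.09 (edgeR, adjusted p = 0.00527, with a range of 9.34e-103 to 0.966 over all edgeR and DESeq2 alternatives).

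For Sox2 the domain around the gene, from −17604 to 78995 bp, had 97.3, 99.1 and 102 reads per covered kb in the WT and 97.5, 98.7 and 98.7 in the KO libraries. The domain over the control region, from 79796 to 155195 bp, had 109 to 114 against 114 to 117. The groups overlapped in both. The log2 fold changes were −0.02 ± 0.02 and 0.04 ± 0.02 (SE; edgeR, adjusted p = 0.649 and 0.362). The distal sequence of Sox2 under H3K27ac was slightly shorter in every KO library, with 141556, 140760 and 143356 bp in the WT and 139960, 139160 and 138560 bp in the KO, where 8.79% of all genes were lower without overlap.

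Utf1 had 70.1, 70.6 and 73.0 reads per covered kb in the WT and 74.0, 76.4 and 75.6 in the KO libraries over a domain from −45588 to 57811 bp. The groups did not overlap, and the log2 fold change of 0.08 ± 0.02 (SE) did not pass the test (edgeR, adjusted p = 0.0526). Its distal sequence under H3K27ac was longer in every KO library, with 32811, 31811 and 31223 bp against 34423, 35423 and 34423 bp, where 24.8% of all genes were higher without overlap. At Lin28a the promoter region, from −1559 to 21440 bp, had 137, 146 and 135 against 138, 134 and 136 reads per covered kb. The groups overlapped (log2 fold change −0.03 ± 0.04 (SE); edgeR, adjusted p = 0.618). The WT calls over the promoter windows of the 5 genes had 114 to 143 scaled H3K27ac reads per covered kb, shared out by length. This was above 96.4% to 99.2% of 12784 genes and is a density of whole calls.

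**Figure D4:**
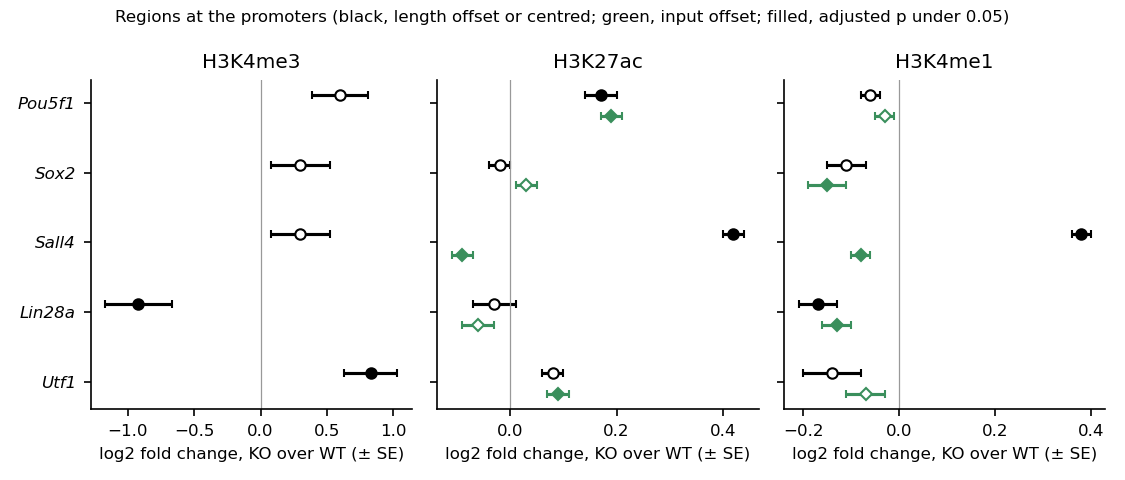
Log2 fold change (KO over WT, ± SE) of the merged region at the promoter of each of the 5 genes for H3K4me3, H3K27ac and H3K4me1. Black circles are the fits with the covered length as an offset or, for H3K4me3, with centred libraries. Green diamonds are the fits with the input reads as the offset in place of the covered length. Filled symbols passed an adjusted p of 0.05. With the input offset the Sall4 values move from 0.42 and 0.38 to −0.09 and −0.08, and the Pou5f1 H3K27ac value stays called.

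H3K4me1 calls left a gap within 5 kb of the 5′ end in every library at Sox2, Sall4 and Utf1, but only in some at Pou5f1 and Lin28a. Of 44625 regions 5.69% passed edgeR's test, and of the 11 in the windows 4 passed (36.4%), 2 higher at Sall4 and 1 lower at each of Sox2 and Lin28a. Without Sall4 this was 2 of 9 (22.2%). The 4 called regions were 39600 to 75200 bp long, with 2738 to 7691 reads per library, whereas the median H3K4me1 call measured 3600 to 4200 bp. A share for regions as long or as deep was not counted. Downstream of Sox2, from 3796 to 78995 bp, the level was 95.3, 95.9 and 94.7 scaled reads per covered kb in the WT and 86.8, 88.1 and 85.4 in the KO libraries. The groups did not overlap. The log2 fold change was −0.14 ± 0.02 (SE; edgeR, adjusted p = 7.46e-04), and −0.05 with the input offset (edgeR, adjusted p = 0.0689, with a range of 1.24e-07 to 0.0689 over all edgeR and DESeq2 alternatives). The regions upstream of Sox2 and over its control region were lower in every KO library too, with log2 fold changes of −0.11 ± 0.04 and −0.07 ± 0.02 (SE; edgeR, adjusted p = 0.139 and 0.136), which did not pass the test. With the input offset both passed, at −0.15 and −0.13 (edgeR, adjusted p = 0.0119 and 0.00174), and over all edgeR and DESeq2 alternatives the adjusted p ranged from 0.00764 to 0.335 upstream and from 0.00155 to 0.345 over the control region. Of all 44625 regions 4559 were called higher and 4233 lower with the input offset, against 1816 and 721 with the covered length.

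The Lin28a promoter region had 92.5, 87.6 and 84.1 scaled H3K4me1 reads per covered kb in the WT and 79.4, 76.1 and 79.2 in the KO libraries. All KO libraries were lower. The calls covered 31600, 36600 and 35800 bp in the WT and 37000, 40000 and 35200 bp in the KO libraries. They held 2974, 3251 and 3042 reads against 2903, 3005 and 2738. What part the call lengths had in the difference was not tested. The log2 fold change was −0.17 ± 0.04 (SE; edgeR, adjusted p = 0.0123), and it did not pass without WT replicate 1 (−0.13, edgeR adjusted p = 0.0539), without KO replicate 2 (−0.15, 0.0693), with calls merged across gaps of 1000 bp (−0.08, 0.0850) or over the promoter window alone (−0.15, 0.517). Over all alternatives the edgeR or DESeq2 adjusted p ranged from 3.60e-04 to 0.517. At Pou5f1 the level was 103, 104 and 103 against 99.8, 98.2 and 99.6, lower in every KO library, with a log2 fold change of −0.06 ± 0.02 (SE; edgeR, adjusted p = 0.0836). The Utf1 groups overlapped, with 110, 111 and 96.0 against 94.5, 99.1 and 93.2 upstream of its 5′ end.

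At Sall4 the 2 H3K4me1 regions had log2 fold changes of 0.38 ± 0.02 at the promoter and 0.46 ± 0.03 inside and past the gene (SE; edgeR, adjusted p = 1.58e-08 and 5.76e-07). The promoter region went from 88.0, 89.7 and 88.6 to 116, 114 and 116 scaled reads per covered kb. With the input offset the values turned to −0.08 and −0.10 (edgeR, adjusted p = 0.00835 and 0.0167), as for H3K27ac, and the edgeR or DESeq2 adjusted p over the alternatives ranged from 1.80e-59 to 0.0104 at the promoter and from 2.59e-38 to 0.0167 inside and past the gene.

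The stretch without H3K4me1 around the 5′ end was longer in every KO library at Sox2 and Utf1, 2 of 5 genes, where 9.84% of 12397 genes were longer without overlap. At Sox2 it measured 4600, 4400 and 4600 bp in the WT and 5000, 5000 and 4800 bp in the KO libraries. H3K27ac calls covered all of the 10001 bp around the Sox2 5′ end in the same clones. At Utf1 the stretch measured 800, 1000 and 1200 bp against 1400, 3000 and 1400 bp. Epic2 calls run in steps of 200 bp, so the groups at both genes were 1 step apart at their nearest. At Pou5f1 2 WT libraries had no such stretch and all KO libraries had one, of 1000, 800 and 2800 bp, but WT replicate 3 had 1000 bp and the groups overlapped.

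H3K27me3 was absent from the calls of all 6 libraries over the whole Pou5f1 window of 44.8 kb, and within 5 kb of the 5′ end of Sox2, Sall4 and Utf1. At Lin28a 1 WT library had a call of 800 bp in the promoter, from −1759 to −960 bp. With it, 12 merged regions touched the windows of the other 4 genes, and 6, all farther out, were tested, with 72 to 457 reads per library. None passed edgeR's or DESeq2's test, where 2.75% of 18809 regions passed edgeR's, but 2, at Sox2 and Utf1, passed with the input offset, and 1, at Sall4, without KO replicate 3. With the input offset 1217 of all regions were called higher and 1183 lower, against 326 and 192 with the covered length. Of the 6, 3 had an unadjusted edgeR p under 0.05. They were the Sall4 region from 23543 to 28542 bp, the Sox2 region from 8196 to 15995 bp and the Utf1 region from −26588 to −9189 bp, all with a higher mean of reads per covered kb in the KO, with log2 fold changes of 0.51 ± 0.16, 0.29 ± 0.10 and 0.27 ± 0.11 (SE; edgeR, adjusted p = 0.121, 0.186 and 0.262). At Utf1 the groups overlapped. Its calls there covered 10000, 10000 and 14000 bp in the WT and 7600, 7400 and 11800 bp in the KO libraries. They held 336, 364 and 445 reads against 326, 356 and 395. The Sall4 region had 36.7, 32.0 and 36.7 scaled reads per covered kb in the WT and 63.1, 51.9 and 39.4 in the KO libraries. It lies in the segment with more input reads in the KO.

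H3K9me3 calls touched the windows in 7 merged regions, and none was called in all 6 libraries, so none was tested. Utf1 had none. Upstream of Lin28a, from −13359 to −10160 bp (chr4:134029001-134032200), H3K9me3 calls covered 2600, 2400 and 1800 bp in the WT and 0 bp in each KO library. Over the genome 2.58% of 61378 merged regions were called in 3 WT and 0 KO libraries, and the distal H3K9me3 sequence of 12.9% of all genes was lower without overlap. The H3K9me3 lists covered 205, 207 and 202 Mb in the WT and 186, 172 and 185 Mb in the KO libraries. What part the shorter KO lists had at Lin28a was not tested. A call of 1 library of each genotype lay over the Sox2 gene, and the remaining 5 regions had 1 to 5 libraries with a call.

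Promoters of 5000 bp upstream to 100 bp downstream and the distal sequence of the windows were also set apart, which gave 50 comparisons of covered bp over 5 genes and 5 marks. In 40 of the 50 any library had a call, and in 8 of these the groups did not overlap (20.0%). Over the promoters and distal sequences of all genes with a call this was 21.0%. H3K4me3 made up 5 of them, all higher in the KO, at the promoters of Lin28a and Utf1 and in the distal sequence of Pou5f1, Sall4 and Utf1. The distal sequence began 100 bp past the 5′ end, so it held the downstream part of the calls at the promoters. At Utf1 the call at the 5′ end lay in both parts. Of all genes, 17.9% were higher without overlap at the promoter and 22.8% in the distal sequence. The distal sequence of Pou5f1 had 3662, 3419 and 3592 bp of H3K4me3 in the WT and 4361, 4481 and 5073 bp in the KO libraries. That of Sall4 had 5728, 6256 and 6816 bp against 9411, 10734 and 11774 bp. That of Utf1 had 4505, 3566 and 3919 bp against 5342, 5563 and 6495 bp. The other 3 were the H3K27ac lengths of Sox2 and Utf1 and the H3K9me3 length of Lin28a given above. Leaving out WT replicate 3 moved the count from 8 to 14, but such a count cannot fall when a library is left out.

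Other regulators of pluripotency, a list of 30 genes, were read at their promoter regions in the same fits. For H3K27ac 11 of 29 tested were higher and 2 lower (44.8%, where 13.2% of all regions passed), and over promoter windows alone 1 passed. Of all 11878 promoter windows 202 were called higher and 42 lower. For H3K4me3 3 of 19 were higher and 1 lower (21.1%, against 18.1% of all regions), for H3K4me1 4 of 30 higher and 1 lower (16.7%, against 5.69%), for H3K27me3 2 of 10 lower (20.0%, against 2.75%), and for H3K9me3 0 of 1, where 0.439% of all regions passed. The shares of all regions were not matched to the listed genes' regions in length or reads. The medians of the log2 fold changes were 0.16 for H3K4me3, 0.10 for H3K27ac, 0.02 for H3K4me1 and −0.11 for H3K27me3. The H3K4me3 count of 4 was 2 without WT replicate 1 or 2, 1 without WT replicate 3 and 0 without KO replicate 1. The H3K4me1 count of 5 was 3 without WT replicate 1, KO replicate 1 or KO replicate 2. Over all 14907 H3K4me3 regions, 829 were higher and 936 lower without KO replicate 1, against 1313 and 1379 with all libraries. Over all 44625 H3K4me1 regions these were 1249 and 414, against 1816 and 721.

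Klf2, a Krüppel-like factor of naïve pluripotency, had the largest H3K4me3 and, without an input offset, H3K27ac differences of the list, with log2 fold changes of 0.88 ± 0.25 (SE; limma, adjusted p = 0.0262) and 0.79 ± 0.02 (SE; edgeR, adjusted p = 1.16e-09). Its 1 Mb window had a log2 input ratio of 0.49 in the H3K27ac and 0.51 in the H3K4me1 lists, which share an input pair. In the H3K27me3 and H3K9me3 lists, with other inputs and other calls, the Klf2 window had 0.07 and 0.15. With the input offset the H3K27ac fold change at Klf2 was 0.20, below those of Tfcp2l1 (0.28), Dppa2 (0.25) and Gbx2 (0.25). Dppa4 was next for H3K4me3 (0.75 ± 0.19 (SE); limma, adjusted p = 0.0163). Tfcp2l1, a transcription factor of the naïve state, was next for H3K27ac (0.39 ± 0.02 (SE); edgeR, adjusted p = 9.61e-07), and had an input ratio of 0.07. For H3K4me1 Tcl1 was lower (−0.78 ± 0.06 (SE); edgeR, adjusted p = 7.38e-07) and Klf2 higher (0.60 ± 0.02 (SE); edgeR, adjusted p = 6.04e-11), with input ratios of −0.94 and 0.51, and with the input offset they had 0.15 and 0.01. With that offset none of the 5 genes called for H3K4me1 passed (edgeR, adjusted p = 0.0792 to 0.754), and 7 other genes of the list did. Over all 44625 H3K4me1 regions that offset gave 4559 higher and 4233 lower, against 1816 and 721 with the covered length. H3K27me3 was lower at Tbx3 and Gbx2, a T-box and a homeobox factor, with log2 fold changes of −0.76 ± 0.08 and −0.46 ± 0.07 (SE; edgeR, adjusted p = 5.22e-05 and 0.00237) and of −0.86 and −0.51 with the input offset.

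The promoter windows most like those of Sox2, Sall4, Lin28a and Utf1 were sought by the mean absolute difference of log2 values over the 30 libraries. The nearest genes were Nek8, Ube2s and Gm37988 for Sox2, Zdhhc18, Pgghg and Cpsf4l for Sall4, Nmrk1, Stx1a and Wfdc3 for Lin28a, and Spc24, Stk38 and Chka for Utf1 (0.12 to 0.13, where the median over all genes was 2.21). Of the 5 genes, Pou5f1 and Utf1 were nearest to each other, at 0.17, with Pou5f1 at rank 40 among the neighbours of Utf1 and Utf1 at rank 62 among those of Pou5f1. Sall4 and Lin28a were farthest apart, at 1.03.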

How the data were processed

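Per the labels and the study's methods, the authors trimmed reads with Trim Galore 0.6.6, aligned them to GRCm38 (Bowtie2 2.4.4 is named for H3K4me3, H3K27me3 and H3K4me1), dropped multimapped and low-quality reads, marked duplicates with SAMtools 1.15, removed blacklisted sequence and discarded the Drosophila spike-in of H3K27me3. The processing of H3K9me3 reads is not given in the sources used here. The authors called H3K4me3 with MACS2 2.2.7.1, and the deposited lists give a fold enrichment over input, −log10 p-values and q-values and a score, without reads. The other marks were called with epic2 (0.0.52, listed as SICER in the submitters' processing notes). Those deposited lists give the count of ChIP and input reads of each call, a p-value, an FDR, a log2 fold change over input and a score. Calls were made per library at an FDR under 0.05.

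Calls of the 6 libraries of a mark were merged at an overlap of 1 bp. Regions called in all 6 were tested over the whole genome with edgeR 4.0.16 (quasi-likelihood, TMM, log covered length as offset) or, for H3K4me3, limma 3.58.1 on log2 fold enrichment (pseudocount 0, median-centred), in R 4.3.3 with Benjamini-Hochberg adjustment. Each mark was fitted alone, without covariates. Fits were tested on simulated data. Genes were placed with GENCODE vM21, and intervals handled in Python 3.11.15. Coordinates are 1-based on GRCm38. Named regions are the promoter region of each gene, the Sox2 control region and, per mark, the called region with the largest change. Of the listed regulators at most 2 per mark are named. The promoters most like that of Pou5f1 are not reported here. Genes, lists and tests were chosen with earlier results of these data known. A longer call can lower reads per covered kb, and only called sequence has reads. In promoter windows reads were shared out by length from the calls that span them. Such windows do not give the level of a promoter apart from its call. The alternatives tried covered scaling (DESeq2 1.42.0 among them), filters, merging, input, windows and replicates.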

Additional observations from a re-analysis of the deposited data

How the results depend on the processing

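The count of called H3K4me3 regions at the 5 genes was 2, ranged from 1 to 2 when 1 replicate was left out, and was 2 or 3 under the other alternatives. For H3K27ac the count of 2 became 6 without TMM factors, 0 over promoter windows (5 tested) and 1 without Sall4. Of all 24039 regions 465 were called higher and 9751 lower without TMM factors, and of 11878 promoter windows 202 higher and 42 lower. For H3K4me1 the count of 4 became 8 over regions of like length, 1 over promoter windows and 2 without Sall4. Of all 10959 regions of like length 2567 were called higher and 2191 lower, and of 14413 promoter windows 363 and 121. For H3K27me3 the count of 0 became 2 with the input offset, and ranged from 0 to 1 when 1 replicate was left out, with 1 without KO replicate 3. Of all 18809 regions 1217 were called higher and 1183 lower with the input offset, and 228 and 111 without KO replicate 3. No H3K9me3 region at the 5 genes could be tested under any setting, and no H3K27me3 region under regions of like length or promoter windows. The 8 comparisons of covered bp without overlap became 10 to 14 when 1 replicate was left out, 14 without WT replicate 3. Leaving out a library can only keep or raise this count. The share of all genes was not counted there, so the rise does not show dependence on a replicate. Directions turned as follows. Without TMM factors H3K27ac had log2 fold changes of −0.03 at Pou5f1, −0.16 over the Sox2 control region and −0.11 at Utf1. With the input offset it had 0.03 at Sox2, −0.01 over the control region and −0.09 at Sall4, and H3K4me1 had −0.10 and −0.08 at Sall4. H3K27ac also had 0.03 at Sox2 with gaps merged, −0.03 over the control region with regions of like length, −0.05 at Utf1 over promoter windows, and, when 1 replicate was left out, from −0.04 to 0.00 at Sox2 (0.00 without WT replicate 3) and from −0.06 to 0.00 at Lin28a (0.00 without WT replicate 2). The cause was not tested. Of 249 values of named regions under alternatives, 202 kept their direction and side of the threshold, 22 passed newly, 12 no longer passed and 13 turned. Of 630 covered lengths 21 moved by more than the SD. Among all called regions the share that was higher in the KO moved without TMM factors from 71.6% to 56.7% for H3K4me1, from 62.9% to 18.8% for H3K27me3 and from 39.2% to 78.0% for H3K9me3, and without centring from 48.8% to 63.7% for H3K4me3. Same-numbered libraries of the genotypes did not deviate together (correlations of −0.018 to 0.027 over 15 pairs, against −0.033 to 0.015 over 30 pairs of different numbers). This does not settle whether same-numbered samples were handled together. With the replicate number as a block the counts were 3 for H3K4me3, 2 for H3K27ac, 4 for H3K4me1 and 0 for H3K27me3, and the H3K4me1 count of the listed regulators was 3 against 5. That count was 11 over regions of like length and 2 over promoter windows, and the H3K27me3 count of 2 was 4 with the input offset and 1 over promoter windows. Of all 6651 H3K27me3 promoter windows 19 were called higher and 12 lower. The Sall4 alternative, the window of 5000 bp on either side and those of call widths were chosen after seeing the data. As few as 72 reads lay behind a tested H3K27me3 region, which limits its precision.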
